A study of Mus musculus with 3 samples.

Results

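Costimulatory and checkpoint molecules are surface proteins through which antigen-presenting cells and T cells raise or restrain each other's activation. The genes described here are Cd40, Cd80, Cd86, Cd83, Cd274, Pdcd1lg2, Icosl, Cd276, Havcr2 and Cd28, a list chosen by gene symbol, and each symbol matched 1 of the 55536 mouse genes in the deposited tables. RNA came from mouse bone-marrow-derived macrophages, phagocytes grown in culture from marrow, of the strain C57BL/6J. All cells were exposed for 180 min to 100 ng/mL of a stimulus that 1 label field calls lipid A, the part of bacterial lipopolysaccharide that binds Toll-like receptor 4, and other fields call lipoprotein A, a protein. The 3 libraries of polyadenylated RNA, each from 1 µg, are numbered biological replicates of this single group. Sex and age were not collected, per the labels. One donor identifier is shared by the 3 libraries, so separate animals are not documented and p-values measure only the spread between these samples, which may be partly technical. No unstimulated cells were analysed here, and no value below is a response to the stimulus.

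A macrophage that has met a microbial product shows antigen to a T cell and adds a second signal. CD80 and CD86, members of the B7 family, give that signal by binding CD28 on the T cell, and they also bind the inhibitory receptor CTLA-4. PD-L1 and PD-L2, encoded by Cd274 and Pdcd1lg2, bind the inhibitory receptor PD-1, and the ICOS ligand encoded by Icosl binds ICOS. CD40 works in the other direction, as the receptor through which the macrophage receives the CD40 ligand of T cells. Cd40, Havcr2 and Cd28 encode receptors and not ligands, so the list is wider than its usual name.

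Depth was 24450338, 34641026 and 60595742 expected counts over mouse genes in replicates 1, 2 and 3. Any pair of libraries differed by more than counting noise in at least 50.6% of genes, so no library was a copy of another. Levels are given in TPM, the share of a gene in all transcripts after scaling for transcript length. The 10 macrophage markers were all detected, with summed levels of 29699, 19675 and 24136 TPM in replicates 1, 2 and 3. Of 11 T cell markers, 1 was detected, Lck at 34.7, 24.6 and 46.5 TPM. The defining T cell genes Cd3e, Cd3d, Cd3g and Trac stayed between 0 and 0.29 TPM in every replicate. Neutrophil markers were detected in 3 of 9 cases, with summed levels of 83.3, 714 and 48.4 TPM in replicates 1, 2 and 3. The detected ones were S100a8, S100a9 and Ngp, each highest in replicate 2. Ltf, Camp and Mpo reached 17.1, 5.58 and 1.48 TPM in replicate 2 and at most 1.09 TPM in the others. Elane and Retnlg stayed below 1 TPM in every replicate, and Ly6g was at 0. The other marker lists were near their floor, with 1 of 5 B cell, 1 of 9 dendritic cell and 0 of 6 natural killer cell markers detected. Their summed levels were 1.43 to 2.71, 4.22 to 9.16 and 0 to 0.78 TPM. In bulk RNA, fewer cells expressing a gene and less RNA per cell cannot be told apart.

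Of the 10 genes, 8 were detected, that is, at 1 TPM or more in all 3 replicates. Over all mouse genes the share detected was 18.1%. The 2 below the threshold were Cd276 and Pdcd1lg2. At the upper end, Cd40, Cd274 and Cd83 reached 100 TPM or more in every replicate, as did 1142 of the 10026 detected genes. The median of the 10 genes was 42.8, 53.5 and 45.6 TPM in replicates 1, 2 and 3, and that of all detected genes was 14.6, 15.2 and 14.1 TPM. From high to low the order of mean levels was Cd40, Cd274, Cd83, Cd86, Cd28, Cd80, Icosl, Havcr2, Cd276 and Pdcd1lg2.

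**Figure D1:**
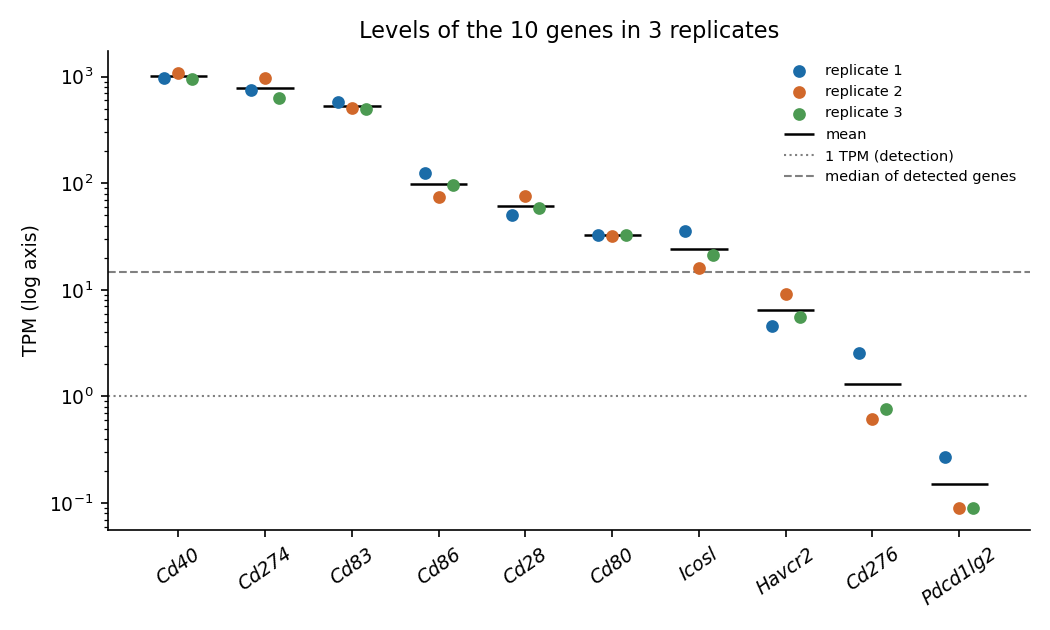
Levels of the 10 genes in TPM on a log axis, with 1 point per replicate and a bar at the mean. Cd40, Cd274 and Cd83 lie at 498 TPM or more in every replicate, Havcr2 lies between 4.63 and 9.18 TPM, and all points of Pdcd1lg2 lie below the dotted line at 1 TPM.

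Cd40 was the most abundant of the 10 per transcript length. This gene (chr2:165055627-165072948, plus strand, mm10) encodes a receptor of the tumour necrosis factor receptor family whose engagement by T cells licenses macrophages and dendritic cells. Its level was 980.4, 1093 and 955 TPM in replicates 1, 2 and 3, a mean of 1009.5 ± 73.8 TPM (SD, n = 3), and 98.6% of detected genes lay below it. Replicate 2 was highest, and the highest and lowest replicate differed by 1.15-fold. These levels rested on 19340, 30479 and 41963 expected counts.

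The reads of Cd40 were divided among several annotated transcripts, and the stretches in which these differ are shown because the shares below turn on them. The full-length form Cd40-201 has 9 exons. Cd40-203 lacks exon 6 (chr2:165066503-165066564), Cd40-202 lacks exon 7 (chr2:165069629-165069715), and Cd40-207 keeps intron 7 (chr2:165069716-165069816). Sequences are from the GENCODE M21 transcripts on mm10, plus strand, 5′ to 3′. Capitals mark the exon or intron that differs, with 20 bases on either side in lower case, and forms without it are shown as the 20 bases before and after the junction.
Cd40-201 with exon 6: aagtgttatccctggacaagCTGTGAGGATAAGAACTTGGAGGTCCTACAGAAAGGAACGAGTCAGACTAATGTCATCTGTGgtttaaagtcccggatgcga
Cd40-203 without exon 6: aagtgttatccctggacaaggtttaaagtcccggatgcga
Cd40-201 with exon 7: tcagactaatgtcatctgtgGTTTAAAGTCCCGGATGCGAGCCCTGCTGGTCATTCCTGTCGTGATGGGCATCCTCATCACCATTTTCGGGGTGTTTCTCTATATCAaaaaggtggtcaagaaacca
Cd40-202 without exon 7: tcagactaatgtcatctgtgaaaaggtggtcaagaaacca
Cd40-207 with intron 7: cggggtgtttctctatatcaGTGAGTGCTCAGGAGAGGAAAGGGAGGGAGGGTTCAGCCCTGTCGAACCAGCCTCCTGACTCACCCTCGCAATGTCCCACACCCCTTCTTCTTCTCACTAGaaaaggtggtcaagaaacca

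Exon 6 has 62 bases, so its absence shifts the reading frame, and the annotated coding sequence of Cd40-203 ends after 203 codons against 289 codons in Cd40-201. Exon 7 has 87 bases, and its absence in Cd40-202 keeps the frame and leaves 260 codons. In the protein of Cd40-201, the most hydrophobic window of 19 residues beyond the first 30 had a mean Kyte-Doolittle hydropathy of 2.86 and covered residues 195 to 213. Exon 7 encodes residues 187 to 216, which include this window. CD40 is a protein that crosses the membrane in a single hydrophobic segment. In the forms without exon 6 or exon 7, the highest window had a mean of 0.56. Cd40-207, annotated for nonsense-mediated decay, kept the window of 2.86 and has 234 codons.

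By mean share of the gene's TPM, Cd40-202 led, with 36.7, 36.7 and 30.9% in replicates 1, 2 and 3 (34.8 ± 3.37%, SD, n = 3). Cd40-203 held 26.6, 28.8 and 38.8% and was ahead of Cd40-202 in replicate 3. The full-length Cd40-201 held 18.66, 19.04 and 17.45%. Cd40-207 held 13.4, 11.0 and 10.1%, and the intron-retaining Cd40-205 held 3.27, 3.34 and 1.49%. The full-length form thus came after Cd40-202 and Cd40-203 by share of TPM in every replicate. It was first by share of expected counts, with 42.3% in the mean against 38.9% for Cd40-202 and 10.5% for Cd40-203. Cd40-203 is annotated with 668 bases and Cd40-201 with 2986 bases, so each count of the short form weighs more in TPM. Besides exon 7, Cd40-201 and Cd40-202 differ in their annotated last exons, of 2227 and 933 bases. The shares therefore rest on both differences, and what each contributes was not tested. In the second quantification, which the authors made directly from the reads, Cd40-202 also led in the mean, with 30.1 ± 1.17%, and Cd40-203, at 25.6 ± 5.70%, again passed it in replicate 3. There Cd40-207 held 17.8, 16.8 and 16.6% in replicates 1, 2 and 3, above the full-length Cd40-201 with 10.4, 13.0 and 11.9%. Cd40-205 held 10.6 ± 3.95%. Transcripts not annotated as protein-coding, Cd40-205 and Cd40-207 among them, made up 17.9, 15.4 and 12.8% of Cd40 in the first quantification, and 35.69, 30.70 and 24.997% in the second.

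**Figure D2:**
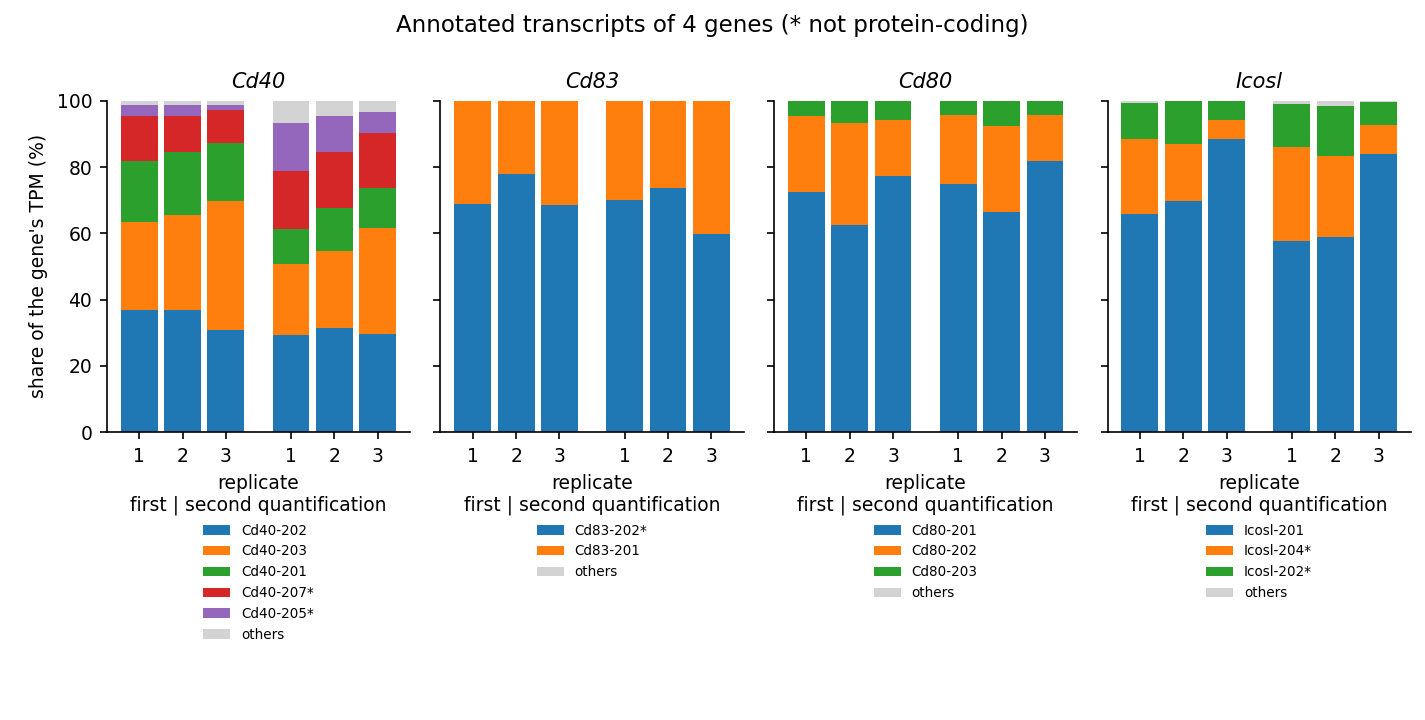
Shares of annotated transcripts in the TPM of Cd40, Cd83, Cd80 and Icosl, in percent, with 1 bar per replicate for the first quantification (left) and the second (right) in each panel. Cd40 is divided among 5 named transcripts, Cd83-202 holds 59.9% or more of its gene in every bar, and the intron-retaining forms of Icosl are lower in replicate 3 than in replicates 1 and 2.

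Among the ligands of CD28 and CTLA-4, Cd86 lay above Cd80 in every replicate. Cd86 (chr16:36603869-36666081, minus strand) stood at 126, 75.1 and 96.9 TPM in replicates 1, 2 and 3, a mean of 99.2 ± 25.4 TPM (SD, n = 3). It was highest in replicate 1 and lowest in replicate 2. Cd80 (chr16:38455561-38496335, plus strand), on the same chromosome, stood at 32.7, 31.9 and 32.7 TPM, a mean of 32.5 ± 0.462 TPM, from 913, 1338 and 2086 expected counts. The ranges of the 2 genes did not overlap. The log2 ratio of Cd80 to Cd86 was -1.94, -1.23 and -1.56 in replicates 1, 2 and 3, a mean of -1.58 ± 0.35 or 0.335-fold. Flipping the signs of the replicate ratios in an exact two-sided permutation test gave p = 0.25, which is the lowest value open to 3 replicates.

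Cd86 was almost wholly assigned to 1 transcript, Cd86-201, with 93.9, 92.5 and 90.3% of its TPM. Cd80 was divided between Cd80-201, with 72.4, 62.5 and 77.2% in replicates 1, 2 and 3, and Cd80-202, with 23.1, 30.8 and 16.9%. Both are annotated with the same number of codons, 306, and differ in length, with 1701 and 3173 bases. Cd80-203, a shorter form of 212 codons, held 4.56, 6.77 and 5.93%. By expected counts Cd80-201 held 59.0% in the mean, against 70.7 ± 7.50% by TPM. In replicate 2 it did not lead by expected counts, with 49.0% against 49.3% for Cd80-202. All Cd80 transcripts above the 5% share used for naming are thus annotated as protein-coding.

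Cd83 encodes a surface protein of the immunoglobulin family that is a common marker of mature dendritic cells. The gene (chr13:43784775-43803132, plus strand) stood at 575, 512 and 498 TPM in replicates 1, 2 and 3, a mean of 528 ± 41.1 TPM (SD, n = 3). Replicate 1 was highest, and 97.2% of detected genes lay below the mean. In the second quantification replicate 2 was highest, with 405, 475 and 398 TPM in replicates 1, 2 and 3. That quantification shifted detected genes least in replicate 2, by a median log2 of -0.06. Cd83 was the single gene of the 10 whose leading transcript is not annotated as protein-coding. That transcript, Cd83-202, is annotated as keeping intron 1 (chr13:43785251-43785345), which lies between coding stretches of Cd83-201. The intron is shown in capitals, with 20 bases on either side, above the spliced junction (GENCODE M21, mm10, plus strand, 5′ to 3′).
Cd83-202 with intron 1: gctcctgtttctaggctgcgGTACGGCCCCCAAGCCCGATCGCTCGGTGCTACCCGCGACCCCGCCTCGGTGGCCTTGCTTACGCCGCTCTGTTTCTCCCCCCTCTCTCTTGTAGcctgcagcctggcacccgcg
Cd83-201 without intron 1: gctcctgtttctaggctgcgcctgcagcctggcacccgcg

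Cd83-202 held 68.9, 78.0 and 68.5% of the gene's TPM in replicates 1, 2 and 3 (71.8 ± 5.34%, SD, n = 3), and Cd83-201, of 196 codons, held the rest. In expected counts these were 12093, 17376 and 25313 for Cd83-202 and 6366, 5746 and 13601 for Cd83-201, with posterior SDs of the authors' estimate of 181, 167 and 219. The second quantification gave Cd83-202 shares of 69.9, 73.7 and 59.9%. Of 7746 detected protein-coding genes with a noncoding transcript, 6.80% had 50% or more of their TPM in noncoding transcripts, and the median share was 5.81%. The annotations of both Cd83 transcripts differ in more than the intron of 95 bases. Cd83-201 also starts 410 bases upstream, so reads from that stretch favour it and their lack favours Cd83-202. Which of the differences sets the share was not tested, and the share is an estimated assignment and not a count of reads over the intron.

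**Figure D3:**
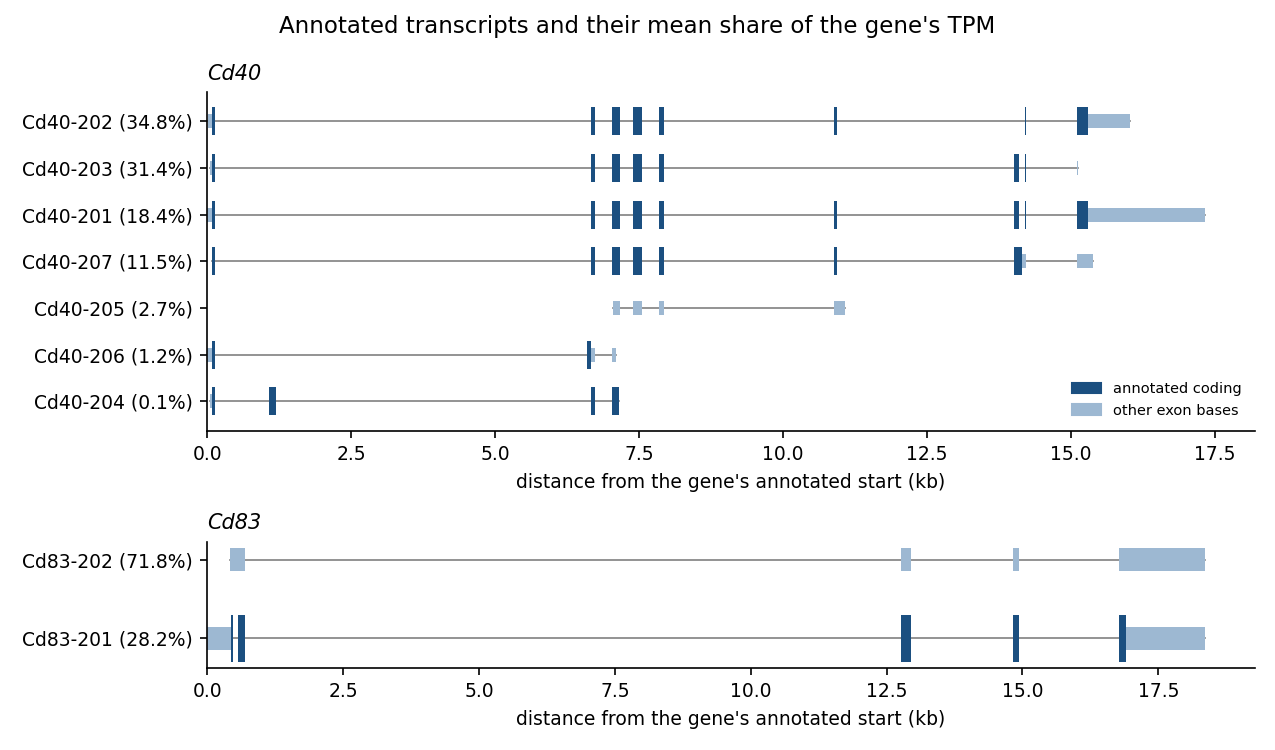
Annotated transcripts of Cd40 and Cd83 drawn to scale by distance from the start of the gene in kb, with coding parts dark and other exon bases light, ordered by mean share of the gene's TPM in the first quantification. Cd40-202 and Cd40-203 each lack 1 internal exon of Cd40-201, and Cd83-202 joins the first exons of Cd83-201 but starts 410 bases later.

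The PD-1 ligand genes stood near opposite ends of the order. Cd274 (chr19:29367455-29388095, plus strand), which encodes PD-L1, stood at 745, 974 and 634 TPM in replicates 1, 2 and 3, a mean of 784 ± 173 TPM (SD, n = 3). Replicate 2 was highest, and 98.2% of detected genes lay below the mean. Its neighbour Pdcd1lg2 (chr19:29410919-29471161, plus strand), which encodes PD-L2, stood at 0.27, 0.09 and 0.09 TPM. That level rested on 6, 3 and 5 expected counts, against 40236, 75565 and 83799 of Cd274. Exact 95% Poisson intervals for counting error ran from 0.0991 to 0.588, 0.0186 to 0.263 and 0.0292 to 0.210 TPM for Pdcd1lg2, all below the 1 TPM of detection. Such intervals cover counting error only, since amplified reads are not independent molecules.

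Cd274 and Pdcd1lg2 lie on the same strand with a gap of 22.8 kb and 0 annotated genes wholly between them. The log2 ratio of Cd274 to Pdcd1lg2, on the scale of TPM plus 0.1, was 10.98, 12.32 and 11.71 in replicates 1, 2 and 3, a mean of 11.67 ± 0.67. The exact permutation test gave p = 0.25, the smallest possible. The size of the ratio depends on the added constant, and with 1 TPM added the mean was 9.40. All reads of Cd274 were assigned to Cd274-201, the only transcript annotated, and those of Pdcd1lg2 to Pdcd1lg2-201. An antisense gene, AC119228.1 (chr19:29373417-29384471, minus strand), lies within Cd274 and had 34.1, 38.5 and 15.1 TPM. Strand handling is unknown here, and how far reads of overlapping genes on opposite strands were kept apart was not tested. The posterior SD of the authors' estimate for Cd274-201 was 5.57, 6.29 and 5.66 counts in replicates 1, 2 and 3, on 40236, 75565 and 83799 expected counts. Pdcd1lg2 overlaps the antisense gene A930007I19Rik, which had 0.69, 0.52 and 0.43 TPM.

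Icosl (chr10:78069302-78083913, plus strand), the ICOS ligand gene, stood at 35.7, 16.2 and 21.3 TPM in replicates 1, 2 and 3, a mean of 24.4 ± 10.1 TPM (SD, n = 3). Replicate 1 was 2.21-fold above replicate 2. The protein-coding Icosl-201 led with 65.8, 69.8 and 88.4% of the gene's TPM. The intron-retaining Icosl-204 held 22.6, 17.2 and 5.73%, and the intron-retaining Icosl-202 held 11.0, 13.1 and 5.73%. Replicate 3, the most deeply sequenced, thus had the smallest intron-retaining share. The second quantification gave Icosl-201 shares of 57.8, 58.8 and 84.0%, with the same replicate highest, and the part that depth has in this was not tested.

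Cd276 (chr9:58524298-58555437, minus strand), which encodes the B7 family member B7-H3, was at the edge of detection. It had 2.53, 0.62 and 0.76 TPM in replicates 1, 2 and 3, from 75, 42 and 89 expected counts. Replicate 1 was above 1 TPM and the others below, so the mean of 1.30 TPM became 0.69 TPM without replicate 1. In replicate 1, the short transcript Cd276-204, of 346 bases, held 40.3% of the gene's TPM from 1.77 expected counts. The longer Cd276-201, of 3186 bases, held 45.5% there from 53.9 expected counts, and 100 and 88.2% in replicates 2 and 3. Cd276-202, with the same 316 codons, held 14.2, 0 and 11.8%. In CPM, the share of each gene in the counts of its library, which do not use length, Cd276 stood at 3.07, 1.21 and 1.47 in replicates 1, 2 and 3, a smaller difference than in TPM.

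Of the 2 receptors usually described on T cells, Cd28 was the more abundant. Cd28 (chr1:60716800-60773359, plus strand), the receptor of CD80 and CD86, stood at 49.9, 76.4 and 58.5 TPM in replicates 1, 2 and 3, a mean of 61.6 ± 13.5 TPM (SD, n = 3), from 3267, 7209 and 9395 expected counts. It was highest in replicate 2 and above Cd80 in every replicate. Its reads were assigned to the protein-coding Cd28-201 by 99.8, 99.9 and 99.9%. The T cell genes Cd3e, Cd3d, Cd3g and Trac had 0 to 5 expected counts per library. Lck, of the same marker list, had 535, 504 and 1513 expected counts in replicates 1, 2 and 3. The part of other cells in the Cd28 level was not tested. Ctla4, which encodes the inhibitory receptor for the same ligands, had 0 counts in every library. With 0 counts, a share of up to 3 counts remains possible, that is 1.23e-05, 8.66e-06 and 4.95e-06% of all counts in replicates 1, 2 and 3.

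Havcr2 (chr11:46454935-46481255, plus strand) encodes TIM-3, an inhibitory receptor of exhausted T cells that myeloid cells also carry. It stood at 4.63, 9.18 and 5.51 TPM in replicates 1, 2 and 3, a mean of 6.44 ± 2.41 TPM (SD, n = 3). It was highest in replicate 2, and 29.1% of detected genes lay below the mean. Havcr2-201 held 100, 100 and 96.0% of its TPM. Lgals9, which encodes galectin-9, a protein described as a ligand of TIM-3, stood at 524, 488 and 566 TPM.

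Neighbours in the order were compared within replicates as log2 ratios of TPM plus 0.1. The order was taken from the same TPM values, so these ratios describe it and are no independent test of it. In 7 of 9 pairs all replicates lay on the same side and the mean exceeded the SD. The exact permutation test, two-sided, gave p = 0.25 for these 7, the smallest possible, and 0.321 after Benjamini-Hochberg adjustment over the 9 pairs. The pairs that did not differ beyond their spread were Cd86 over Cd28, with 1.33, -0.02 and 0.73, and Cd80 over Icosl, with -0.12, 0.98 and 0.62 in replicates 1, 2 and 3. For these the exact permutation p was 0.50. Cd40 exceeded Cd274 by 0.38 ± 0.21 and Cd274 exceeded Cd83 by 0.55 ± 0.33, so the top 3 lay close together. The step from Cd83 to Cd86 was larger, with a ratio of 2.44 ± 0.30. Cd28 exceeded Cd80 by 0.90 ± 0.33. Icosl exceeded Havcr2 by 1.89 ± 1.06 and Havcr2 exceeded Cd276 by 2.41 ± 1.44, the ratios with the widest spread of the 9. Cd276 exceeded Pdcd1lg2 by 2.31 ± 0.47, a size that depends on the scale, with 0.91 when 1 TPM was added and 3.04 in CPM. Without replicate 1 the Havcr2 to Cd276 ratio was 3.20, and without replicate 2 it was 1.78.

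The first place in the order depended on length scaling. In CPM, which lack it, Cd274 lay above Cd40, with a log2 ratio of Cd40 to Cd274 of -1.12 ± 0.17. Cd274-201 is annotated with 3622 bases, longer than any named transcript of Cd40. By mean CPM Cd28 then also lay above Cd86, and Icosl above Cd80, so 4 of 10 genes kept their place. Both of these changes were uneven over replicates. Cd28 stood at 133.6, 208 and 155 CPM and Cd86 at 180, 107 and 132 CPM, so Cd86 stayed higher in replicate 1. Icosl stood at 55.2, 25.3 and 34.1 CPM and Cd80 at 37.3, 38.6 and 34.4 CPM, so Icosl was higher in replicate 1 alone, and the mean log2 ratio of Cd80 to Icosl was 0.02. In the second quantification all 10 kept their place. They also did in FPKM, which is proportional to TPM within a library and so is no separate check of the order.

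Most of the genes differed between replicates by more than counting noise, as did most genes of the libraries. In a Pearson chi-square test of equal rates over the 3 libraries, with Benjamini-Hochberg adjustment over all genes tested, 8 of the 9 members tested passed an adjusted p of 0.05. Of all 11611 genes tested 77.5% passed, so the count does not set these genes apart. Pdcd1lg2 was too low to be tested. Cd80 was the exception, with 37.9, 36.7 and 35.9 CPM after TMM scaling in replicates 1, 2 and 3 and an adjusted p of 0.418. That call depended on scaling: with library totals in place of TMM factors its adjusted p was 0.00388, and in the second quantification, where its level was 27.9, 39.3 and 35.4 TPM, it was 0.0349. Cd274, with the most counts, had an adjusted p below 1e-300, and the other 7 lay between 2.27e-151 for Cd86 and 5.93e-08 for Cd276. Without replicate 1 the adjusted p of Cd276 was 0.161, and without replicate 2 that of Havcr2 was 0.0604.

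Spread between replicates was summarised by the biological coefficient of variation of edgeR, which removes counting noise and draws each gene towards others of similar level. Its values are therefore not the spread of each gene alone. This coefficient was 16.9% for Cd80, and 1.12% of tested genes had a lower value. Cd40, Cd83, Cd28 and Cd274 followed with 17.9, 18.2, 19.4 and 19.7%. Cd86 had 22.0%, Havcr2 25.2%, Icosl 26.2% and Cd276 36.4%. The plain SD over mean of TPM, with counting noise left in, was lower for Cd80, Cd40 and Cd83, at 1.42, 7.32 and 7.78%. For the rest it was higher, at 22.0% for Cd28, 22.1% for Cd274, 25.6% for Cd86, 37.5% for Havcr2, 41.5% for Icosl and 81.7% for Cd276. The median was 19.7% over the 9 members tested and 21.3% over all genes tested. Of all tested genes, 71.2% had a lower value than Icosl and 96.8% a lower value than Cd276.

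**Figure D4:**
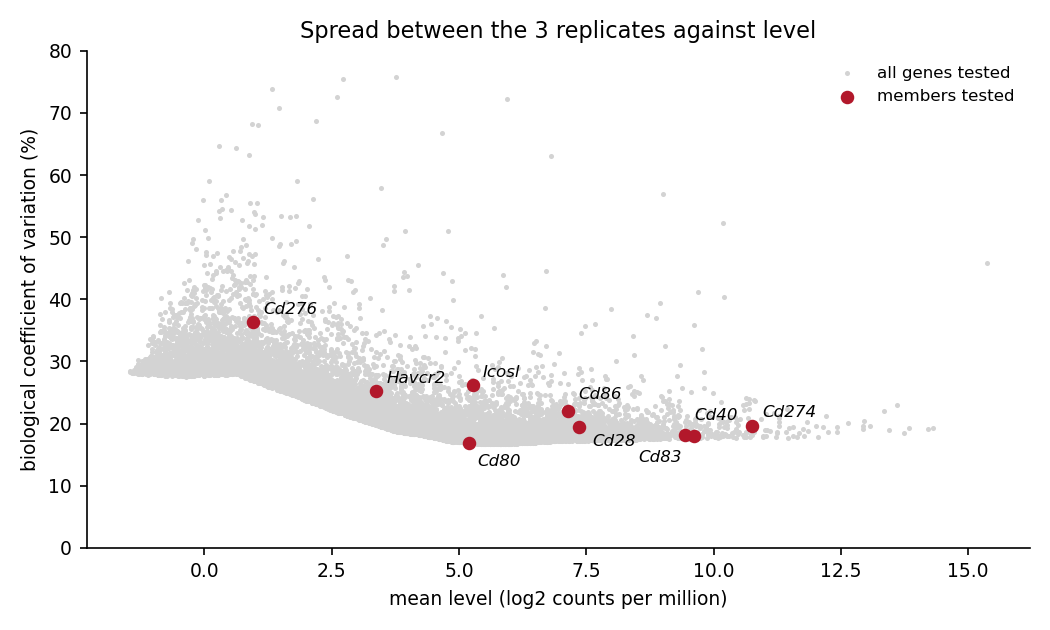
Biological coefficient of variation of edgeR between the 3 replicates, in percent, against mean level in log2 CPM. Each value is drawn towards genes of similar level. Grey marks all genes tested and red the 9 members tested. Cd80 lies at the lower edge of the grey points with 16.9%, Icosl at a like level has 26.2%, and 2 genes lie above the top of the axis at 80%.

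Replicates did not move the genes in a common direction. Cd40, Cd274, Cd28 and Havcr2 were highest in replicate 2, whereas Cd86, Icosl and Cd276 were lowest there. Cd80 is counted on neither side. Its TPM of 32.7, 31.9 and 32.7 in replicates 1, 2 and 3 hardly differed. In the second quantification it was highest in replicate 2, with 27.9, 39.3 and 35.4 TPM. Over all detected genes, 43.9% were highest in replicate 2 and 30.4% lowest in it. The summed neutrophil markers were also highest in replicate 2, at 714 TPM against 83.3 and 48.4 TPM in replicates 1 and 3, and their part in the levels of these 4 genes was not tested. Without replicate 2 the mean levels of Cd40, Cd274, Cd28 and Havcr2 were 967, 689.8, 54.2 and 5.07 TPM.

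Related ligands outside the 10 were also abundant in part. Of 18 other costimulatory and checkpoint ligand genes, 14 were detected, beside 18.1% of all mouse genes. Icam1, which encodes an adhesion ligand of the T cell integrin LFA-1, was highest with 1513, 1236 and 1489 TPM in replicates 1, 2 and 3. Lgals9 followed with the values given above, and Tnfsf9, the gene of the ligand of 4-1BB, had 208.5, 286 and 184 TPM. Vtcn1 and Btn2a2 had 0 counts in every library. The median of these 18 genes was 32.97, 51.94 and 39.40 TPM, against 42.8, 53.5 and 45.6 TPM for the 10 genes above.

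Most genes of a companion list of receptors were below detection. Of its 16 genes, 5 were detected, led by Tnfrsf14, the receptor HVEM that is itself widely expressed, at 60.9, 62.3 and 59.5 TPM. The list includes Cd40lg, a ligand gene, and leaves out the receptor genes Cd28 and Havcr2, which were detected as described above. Over all mouse genes the share detected was 18.1%, so the count does not set the list apart as low. Itgal, a subunit of LFA-1, had 28.9, 14.4 and 18.2 TPM and was highest in replicate 1. Lag3, an inhibitory receptor gene, had 13.6, 9.43 and 12.0 TPM. Ctla4, Cd40lg and Tigit had 0 counts, and Pdcd1, the PD-1 gene, had 0, 1 and 0 counts in replicates 1, 2 and 3.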

How the data were processed

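RNA-seq of 3 libraries of 1 group was used as deposited. Per the file headers, the authors deposited expected counts (estimated fragment counts that need not be whole), TPM and FPKM per gene with a posterior standard deviation of the count. Per the file headers, the deposited transcript tables hold the same and the percent of the gene's abundance that each transcript makes up. The second quantification deposited by the authors holds estimated counts and TPM per transcript, which were summed per gene. The assembly mm10 and the annotation GENCODE M21 are named in text files deposited beside them. Quantifier names, versions and the strand setting: not given in the sources used here. Entries that are not mouse genes stayed out of library sizes and tests.

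The members, the companion lists and the tests were chosen with earlier results of these data known. All 10 members are named, and of the companion lists the 3 highest genes and those at 0 counts. Pdcd1 and Ctla4 are named as receptors of members, and Cd40lg as the gene of the ligand of CD40. Transcripts are named at 5% or more of their gene's TPM in the mean of either quantification. Log2 ratios used TPM plus 0.1, with an exact sign-flip permutation test over replicates. For the test of equal rates, expected counts were rounded to whole numbers, low genes removed with filterByExpr of edgeR 4.0.16 (R 4.3.3), and library sizes scaled by TMM. A model with groups could not be fitted with 1 group. The test compares libraries and not conditions. It was tried before use on simulated counts that held counting noise alone apart from set changes. Such counts cannot show how it behaves with the wider spread of real libraries. DESeq2 1.42.0 size factors were an alternative. Tables and figures were made with Python 3.11.15, pandas 2.3.3 and matplotlib 3.10.9, and coding sequences were translated with Biopython 1.88.

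The second quantification gave lower TPM over all detected genes, by a median log2 of -0.39, -0.06 and -0.27 in replicates 1, 2 and 3. Depth ran from 24450338 to 60595742 expected counts, so low genes such as Pdcd1lg2 are the least precise.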

Additional observations from a re-analysis of the deposited data

How the results depend on the processing

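No paired analysis was possible because the 3 libraries form 1 group. The alternatives were detection at 0.5 or 5 TPM or by FPKM, the second quantification, a pseudocount of 1 TPM, a floor of 1 TPM, CPM, other size factors, no low-count filter, the Poisson deviance, share of counts, and leaving out each replicate. CPM changed the order of levels: 4 of 10 genes kept their place, and the log2 ratio of Cd40 to Cd274 was -1.12 in place of 0.38. The log2 ratio of Cd274 to Pdcd1lg2 was 9.40 with a pseudocount of 1 TPM and 12.87 in CPM, and that of Cd80 to Cd86 stayed between -1.89 and -1.26. Genes detected numbered 7 at 5 TPM, 9 at 0.5 TPM and 8 otherwise. Neighbours beyond their spread numbered 7 or 8 of 9. With the floor of 1 TPM they were 5 of 7, from ratios that this floor leaves unchanged. All lay within 1.5 times the main count, a limit that only a fall could have passed. The count of neighbours ignores direction, and in CPM it includes the reversed ratio of Cd40 to Cd274. Members called different between replicates numbered 7 to 9 over the alternatives. Without replicates 1, 2 and 3 in turn they were 7, 7 and 8 of 9, beside 64.3, 50.6 and 58.8% of all genes tested. With library totals and in the second quantification they were 9 of 9, beside 78.2 and 77.7% of genes. Without a low-count filter 8 of 10 members and 49.6% of 20566 genes passed, against 8 of 9 and 77.5% in the main test. The cause of these changes was not tested. Relative to the median shift of all detected genes, the second quantification placed Cd80 higher by 0.16, 0.36 and 0.38 (log2) in replicates 1, 2 and 3, and Cd40 by 0.35, 0.22 and 0.13. Transcript shares are estimates, and by share of counts Cd40-201 led in place of Cd40-202. Depth limits Pdcd1lg2 and Cd276 most, with at most 89 expected counts per library.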
